A study of Mus musculus with 24 samples.

Results

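The genes of glycolysis and glycogen metabolism were examined in the tibialis anterior (TA) muscle of mice after photobiomodulation therapy (PBMT), an exposure of the skin to near-infrared light. A written list of 38 gene symbols, out of 55227 gene identifiers of the deposited counts that matched GENCODE, defined the set, and each symbol was mapped to an Ensembl identifier. The list holds the glucose transporters and hexokinases of muscle, the enzymes of glycolysis, the enzymes that break down and build glycogen with their regulatory subunits, and a few side branches.

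Poly(A) RNA of 24 wild-type male C57BL/6J mice aged 5 to 7 weeks was sequenced, with 6 mice in each of 4 groups. Sedentary PBMT mice were shaved on the lower limbs, anesthetized and exposed to light of 830 nm at 25 mW/cm2 and 30 J/cm2 for 20 min, and their muscle was taken 24 h later without exercise. Sedentary controls had the same shaving and anesthesia without light. Fatigued PBMT mice had the same exposure and ran on a treadmill to exhaustion 24 h later. Fatigued controls had the same shaving and anesthesia without light before their run. The muscle of both was taken directly after the run. Run times differed between mice and are not given per library, so light and the length of the run cannot be told apart in the fatigued PBMT comparison. Libraries of sedentary mice came from a different sequencing project than those of fatigued mice, so exercise state and project cannot be told apart in these data.

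Skeletal muscle takes up glucose through transporters of its surface membrane and traps it by phosphorylation, after which it enters glycolysis for ATP or is stored as glycogen. During contraction, phosphorylase kinase turns on glycogen phosphorylase, which releases glucose units from the stored polymer. Glycogen synthase rebuilds the store, and both enzymes are controlled by a phosphatase that targeting subunits hold on the glycogen particle. Most steps are encoded by several genes, of which a muscle form is known to dominate in fast fibers such as those of TA, while the liver, brain or widespread forms are known from other tissues.

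Total counts ran from 43271093 to 46904076 in sedentary controls and from 46327516 to 52775844 in sedentary PBMT mice, a difference in total counts with an exact permutation p of 0.00433. They ran from 56792327 to 68726155 in fatigued controls and from 53122528 to 68566029 in fatigued PBMT mice (exact permutation p = 0.357). Levels are given as CPM, counts relative to a library total scaled by the TMM method of edgeR. Scaling was done within a project for the PBMT comparisons and over all 24 mice for values set across the 4 groups. At this depth the spread between mice, and not counting error, limits the abundant members, whereas Aldoc and Ppp1r3b had mean levels below 1 CPM in every group.

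Sedentary control replicate 4 stood apart from its group. Mitochondrially encoded genes held 3.24% of its counts, against 15.5% to 17.0% in the other 5 sedentary controls, 13.8% to 17.1% in sedentary PBMT mice and 10.5% to 12.9% in the fatigued mice. Its distance from the mean of its group, the root mean square difference in log2 CPM, was 0.361, with 0.172 to 0.209 for the other controls. The 38 genes together held 7.05% of its counts, the highest share in the group, whose median was 5.70%. Mitochondrial counts are part of the total behind this share, so their low part in this library raises it. Fatigued PBMT replicate 5 also lay apart, at a distance of 0.355 against 0.197 to 0.264 for the others, and its summed level of tendon and fibroblast markers was 2510 CPM (group median 849.6 CPM). Results below are given with and without these libraries where they bear on a result.

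Markers of skeletal muscle fibers were abundant in every library, as the tissue label requires. The 9 fiber markers, led by Myh4, summed to 121406 CPM (SD 17086, n = 6) in sedentary controls and 160032 CPM (SD 13047, n = 6) in fatigued controls. Among other cell types, the liver marker Apoa1 had 0 counts in all sedentary mice. Keratinocyte markers summed to 1.65 to 7.18 CPM over the 4 group means. The highest mean was in sedentary PBMT mice, where replicate 4 held 25.5 CPM and the median was 2.51 CPM. Endothelial, nerve, myeloid, adipocyte, erythrocyte and fibroblast markers were present at low to moderate levels. In bulk tissue, fewer cells of a type and less RNA per cell cannot be told apart.

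The 38 genes together took 5.84% of all counts (SD 0.615, n = 6) in sedentary controls and 5.75% (SD 0.185, n = 6) in sedentary PBMT mice. The share was 6.07% (SD 0.228, n = 6) in fatigued controls and 5.88% (SD 0.250, n = 6) in fatigued PBMT mice. Aldoa, the muscle aldolase, alone held 1.74% of the counts of sedentary controls, and Gapdh, often used as a reference gene, held 0.901%. These shares are sums over the members and carry no test. Their total includes mitochondrial counts, which averaged from 11.5% in fatigued controls to 15.9% in sedentary PBMT mice and so bear on the shares.

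Levels between genes were compared per kilobase of the union of exons, as means over all 24 mice. Aldoa led with 6143 CPM per kilobase (SD 613). It was followed by Eno3, the muscle enolase, at 3286 (SD 297), Gapdh at 2069.5 (SD 195), Pygm, the muscle glycogen phosphorylase, at 1916 (SD 313), and Pgam2, the muscle phosphoglycerate mutase, at 1791 (SD 228) CPM per kilobase. Pfkm, the muscle phosphofructokinase, stood at 1327 (SD 181) CPM per kilobase, ahead of Tpi1 at 799 (SD 81.5), Pkm at 692 (SD 117) and Pgk1 at 447 (SD 64.4). Orders of close genes depend on the length used: per kilobase of the longest transcript Pkm (1423) lay above Tpi1 (1369) in CPM per kilobase. The 9 highest levels of the set thus belonged to the plain chain of glycolysis and Pygm, while Gpi1, the isomerase after hexokinase, was the least abundant single-gene enzyme of that chain at 142 CPM per kilobase (SD 13.0).

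Apart from Pygm, the entry steps and the glycogen genes lay below Pgk1 by either length. Slc2a4, the insulin-regulated glucose transporter, averaged 151 (SD 11.1) and Hk2, the hexokinase of muscle, 119.5 (SD 55.8) CPM per kilobase. Among the builders of glycogen, Ugp2, which makes UDP-glucose, averaged 277 (SD 37.96), Gyg, the glycogenin primer, 124 (SD 13.9), Gys1, the muscle glycogen synthase, 101 (SD 10.5) and Gbe1, the branching enzyme, 23.0 (SD 5.45) CPM per kilobase. Among the subunits of phosphorylase kinase, the regulatory subunit Phka1 averaged 156 (SD 20.1), the catalytic subunit Phkg1 81.9 (SD 4.47) and the regulatory subunit Phkb 56.9 (SD 6.33) CPM per kilobase. Their order is not fixed, since per kilobase of the longest transcript Phkg1 stood at 224.6, Phka1 at 159 and Phkb at 78.9 CPM per kilobase. Epm2a, the glycogen phosphatase laforin, averaged 34.2 (SD 3.54), and its partner Nhlrc1, the ubiquitin ligase malin, 2.23 (SD 0.372) CPM per kilobase. Fbp2, the muscle fructose bisphosphatase that runs the phosphofructokinase step backwards, averaged 22.4 (SD 4.80) CPM per kilobase.

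In 8 of the 9 steps with several members, a single gene held at least 85.1% of the step's summed level per kilobase. Pfkm held 99.9% of phosphofructokinase, with Pfkl and Pfkp, the liver and platelet forms, at 0.0975% and 0.0282%. Aldoa held 99.999% of aldolase over Aldoc, the brain form. Pygm held 99.9% of glycogen phosphorylase, with 0.0729% for Pygb, the brain form, and 0.0161% for Pygl, the liver form. Eno3 held 99.7% of enolase over the widespread form Eno1 at 0.297%. The muscle forms thus carried nearly the whole message of these steps.

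The same order held for glucose entry. Slc2a4 held 98.8% of the transporter message over Slc2a1, the basal transporter of many cell types, and Hk2 held 98.8% of hexokinase over the widespread form Hk1. Pgam2 held 98.7% of the mutase step, with 1.14% for Bpgm, which makes bisphosphoglycerate, and 0.157% for Pgam1. Gpd1, the cytosolic arm of the glycerol phosphate shuttle, held 85.1% of the summed level with Gpd2, its mitochondrial arm. The pair are partners in the shuttle rather than forms of the same enzyme, and are counted here as a step. The targeting subunits of the glycogen phosphatase were the exception: Ppp1r3c held 74.6% and Ppp1r3a, the muscle subunit, 25.2%, with 0.178% for Ppp1r3d and 0.0268% for Ppp1r3b. Their split varied between groups, with a mean share of Ppp1r3c of 70.5% (SD 6.61, n = 6) in sedentary controls, 59.4% (SD 6.08, n = 6) in sedentary PBMT mice, 82.5% (SD 2.14, n = 6) in fatigued controls and 86.0% (SD 3.08, n = 6) in fatigued PBMT mice. Among all members the lowest levels were those of Ppp1r3b and Aldoc, at 0.0603 and 0.05001 CPM per kilobase.

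**Figure D1:**
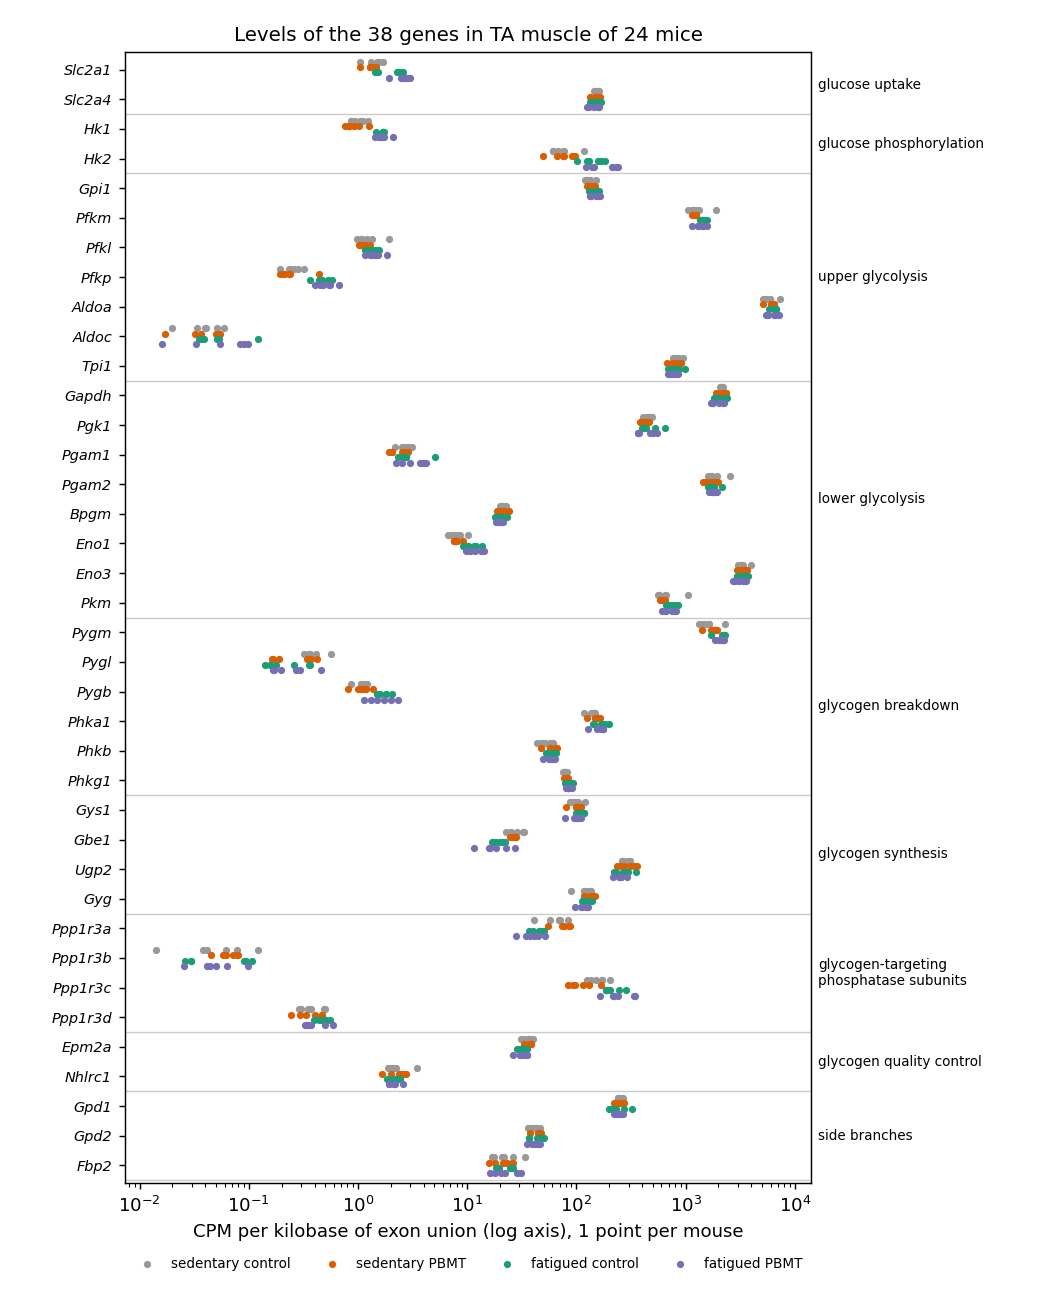
Level of each of the 38 genes in each of 24 mice, as CPM per kilobase of exon union on a log axis, with members ordered by role and 1 point per mouse coloured by group. By mean, the leading form lies to the right of its partners in every step with several members. Single mice overlap for Ppp1r3c (lowest 83.8) and Ppp1r3a (highest 88.2 CPM per kilobase). Levels run from Aldoa with a mean of 6143 to Aldoc with a mean of 0.05001 CPM per kilobase.

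The comparison of PBMT with control in sedentary muscle asked which of these genes differed 24 h after light without exercise. None of the 37 members that passed the filter on low counts was called at an adjusted p under 0.05 with the edgeR quasi-likelihood test (0 of 37, where 0.0282% of the 14177 genes tested were called), and DESeq2 and limma voom also called 0. At an unadjusted p under 0.05, 2 of 37 members (5.41%) passed, Ppp1r3c and Pygl, where 7.63% of all genes tested passed. Aldoc fell below the filter. With PBMT, 19 members had higher and 18 lower fitted values, with a median log2 fold change of 0.00035 over the members and −0.0019 over all genes tested. In none of the 37 members did the 2 groups of 6 mice lie fully apart (0 of 37, where 0.508% of genes tested did).

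The lowest p belonged to Ppp1r3c (ENSMUSG00000067279, GRCm38 chromosome 19, 36731731 to 36736653), a subunit that brings the phosphatase to glycogen. Its level ran from 346 to 547 CPM with a median of 444 in sedentary controls, and from 231 to 466 CPM with a median of 293 after PBMT. The mice of both groups overlapped, with 4 of 6 PBMT mice below the lowest control. The edgeR log2 fold change was −0.47 (SE 0.155, 95% interval −0.80 to −0.14, unadjusted p = 0.00770, adjusted p = 0.475). Without sedentary control replicate 4 it was −0.40 (edgeR adjusted p = 0.512). It was therefore not called with or without that library.

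Pygl, the liver form of glycogen phosphorylase and a minor message here, ran from 2.23 to 4.02 CPM with a median of 2.53 in controls and from 1.14 to 2.92 CPM with a median of 1.86 after PBMT. The upper end in controls was replicate 1 alone, and 3 of 6 PBMT mice lay below all controls. Its edgeR log2 fold change was −0.52 (SE 0.244, 95% interval −1.04 to −0.01, unadjusted p = 0.0473, adjusted p = 0.648). The summed level of 8 myeloid markers, led by Lyz2, was 84.6 CPM in controls and 58.7 CPM after PBMT (exact permutation p = 0.0649, adjusted p = 0.926 over 20 tests), and all 8 had lower fitted values with PBMT. The part of these cells in the values of Pygl was not tested.

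The next members all had higher values with PBMT. Gyg, the self-glucosylating primer on which a glycogen particle starts, ran from 208 to 324 CPM (median 288) in controls and from 281 to 352 CPM (median 329) with PBMT. Although 4 of 6 PBMT mice exceeded the highest control, the groups overlapped. The edgeR log2 fold change was 0.19 (SE 0.0963, 95% interval −0.01 to 0.40, unadjusted p = 0.0623, adjusted p = 0.651) and was 0.12 without sedentary control replicate 4, in which edgeR gave an adjusted p of 0.583. The size of this difference thus depended on that library, which held the lowest Gyg value of the controls.

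Both regulatory subunits of phosphorylase kinase followed. Phkb ran from 323 to 458 CPM (median 385) in controls and from 353 to 497 CPM (median 434) with PBMT. In edgeR its log2 fold change was 0.18 (SE 0.0974, 95% interval −0.03 to 0.38, unadjusted p = 0.0854, adjusted p = 0.667). The groups shared most of their range, with 2 of 6 PBMT mice above all controls. Phka1 ran from 739.8 to 926 CPM (median 907) in controls and from 797 to 1042 CPM (median 985) with PBMT. The edgeR result was a log2 fold change of 0.14 (SE 0.0819, 95% interval −0.03 to 0.31, unadjusted p = 0.110, adjusted p = 0.677). Here 5 of 6 PBMT mice exceeded every control, and the remaining mouse lay within the control range.

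By role, the widest values of the sedentary comparison lay in glycogen breakdown, from −0.52 for Pygl to 0.18 for Phkb, and in the targeting subunits, from −0.47 for Ppp1r3c to 0.22 for Ppp1r3a in log2. Sedentary control replicate 4 was the lowest control for Ppp1r3a, with 13052 counts against 18443 to 26645 in the other controls. The value of Ppp1r3a without that library is not given. The 6 tested members of upper glycolysis, from Gpi1 to Tpi1, had log2 fold changes from −0.19 to 0.079, and the 8 of lower glycolysis, from Gapdh to Pkm, from −0.21 to 0.035. Among glucose transporters and hexokinases the values ran from −0.13 for Slc2a1 to 0.00035 for Slc2a4. The 95% interval of Slc2a4 was −0.14 to 0.14, that of Gys1 −0.17 to 0.20 and that of Gapdh −0.14 to 0.20 on the log2 scale, so larger shifts of these messages lay outside the intervals. Scarce members were measured less closely: the interval of Ppp1r3b spanned −0.64 to 0.94.

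Genes around the set were read from lists, where 7.63% of all genes tested passed an unadjusted p under 0.05 in edgeR. Of 28 tested other genes of glycolysis and glycogen metabolism, 0 were called in edgeR, with 4 higher and 2 lower at an unadjusted p under 0.05. They include Pfkfb3, a bifunctional enzyme that sets the level of an activator of phosphofructokinase, with a log2 fold change of 0.59 (edgeR unadjusted p = 0.00681), its relative Pfkfb4 with −0.21 (edgeR unadjusted p = 0.0373) and the transporter Slc2a3 with 0.48 (edgeR unadjusted p = 0.0406). Of 23 regulators of glucose uptake and glycogen synthase, 0 were called in edgeR, with 4 higher and 2 lower at an unadjusted p under 0.05. The insulin receptor substrates differed in sign, with log2 fold changes of −0.47 for Irs2 (edgeR unadjusted p = 0.00116) and 0.37 for Irs1 (edgeR unadjusted p = 0.00331), and Insr, the receptor itself, had 0.21 (edgeR unadjusted p = 0.0321). Of 15 genes of the pentose phosphate and hexosamine pathways, 0 were called in edgeR and Pgls alone passed an unadjusted p under 0.05 (log2 fold change −0.33, edgeR unadjusted p = 0.0446). Among cell type markers 0 were called in edgeR, and Kdr of endothelium (log2 fold change 0.45, edgeR unadjusted p = 0.0214) and the myeloid genes Csf1r (−0.55, edgeR unadjusted p = 0.00992) and Lyz2 (−0.59, edgeR unadjusted p = 0.0359) passed the unadjusted level.

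**Figure D2:**
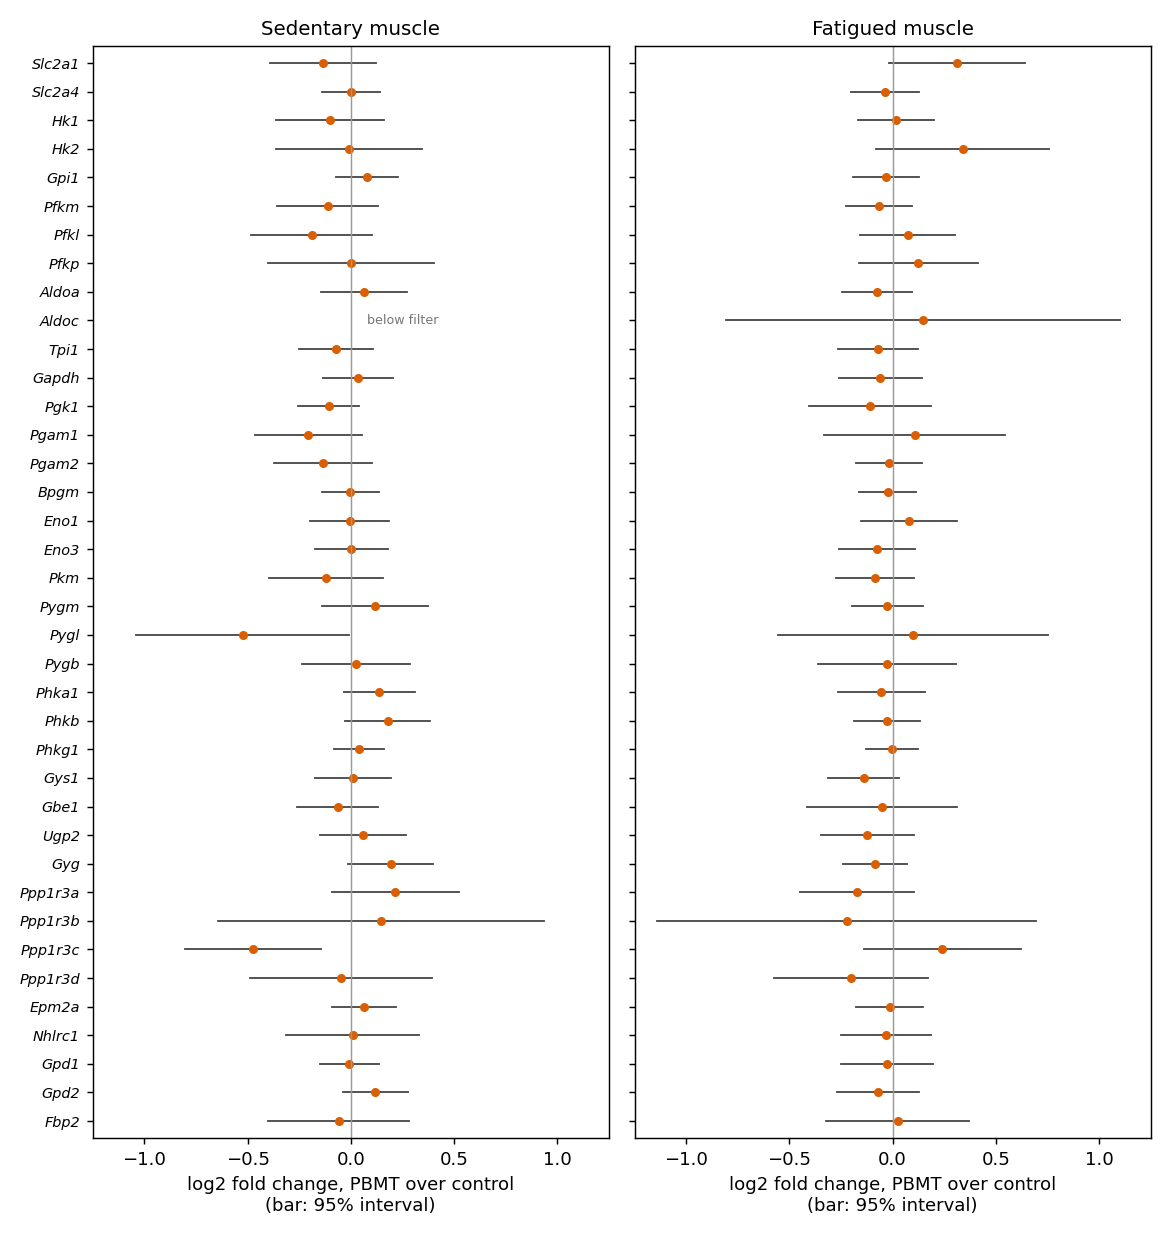
Log2 fold change of PBMT over control in edgeR for each gene, in sedentary muscle (left) and in fatigued muscle (right), with points for the estimate and bars for the 95% interval, 6 mice per group. The interval excludes 0 for Ppp1r3c (−0.47) and Pygl (−0.52) in sedentary muscle, before adjustment over all genes, and Aldoc fell below the filter there.

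The comparison of PBMT with control in fatigued muscle addressed the state of the same genes after a run to exhaustion. With edgeR 0 of 38 members were called, where 0 of the 14574 genes tested were called (0%), and DESeq2 and limma voom also called 0 members. No member passed an unadjusted p under 0.05 (0 of 38), against 1.58% of all genes in edgeR. Fitted values were higher with PBMT for 11 members and lower for 27, with a median log2 fold change of −0.029 over the members and 0.0041 over all genes tested. Groups that lay fully apart were found for 0 of 38 members, where 0.0343% of genes tested had them.

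The highest ranked members were glucose entry genes. Slc2a1 (ENSMUSG00000028645, chromosome 4) ran from 4.90 to 9.01 CPM with a median of 8.02 in fatigued controls and from 6.61 to 10.3 CPM with a median of 9.30 after PBMT. Of 6 PBMT mice, 4 lay above the highest control, and the groups overlapped. The log2 fold change in edgeR was 0.31 (SE 0.154, 95% interval −0.02 to 0.64, unadjusted p = 0.0623, adjusted p = 0.9998). Hk2 (ENSMUSG00000000628, chromosome 6), which phosphorylates glucose on entry, ran from 590.4 to 1082 CPM (median 844) in controls and from 715 to 1427 CPM (median 1056) after PBMT, with 3 of 6 PBMT mice above all controls. Its log2 fold change in edgeR was 0.34 (SE 0.194, 95% interval −0.08 to 0.76, unadjusted p = 0.103, adjusted p = 0.9998).

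The next in order belonged to glycogen synthesis. Gys1 ran from 470.1 to 557 CPM (median 499.8) in controls and from 369 to 526 CPM (median 475) after PBMT, with 3 of 6 PBMT mice below all controls. The edgeR log2 fold change was −0.14 (SE 0.0808, 95% interval −0.31 to 0.03, unadjusted p = 0.105, adjusted p = 0.9998). Without fatigued PBMT replicate 5 it was −0.083, with an edgeR adjusted p of 0.99992. The sign was thus kept while the size was not.

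Of the targeting subunits, Ppp1r3c ran from 499 to 760.5 CPM (median 524) in controls and from 442 to 926 CPM (median 623) after PBMT. The edgeR log2 fold change was 0.24 (SE 0.176, 95% interval −0.14 to 0.62, unadjusted p = 0.195, adjusted p = 0.9998). With a mouse left out it ran from 0.14 to 0.34, the lowest being without fatigued PBMT replicate 4. Values after PBMT thus spread to both sides of the controls. Ppp1r3a, a subunit anchored in muscle membranes, ran from 253 to 344 CPM (median 314) in controls and from 191 to 354 CPM (median 269.5) after PBMT, again on both sides. Its edgeR log2 fold change was −0.17 (SE 0.128, 95% interval −0.45 to 0.10, unadjusted p = 0.201, adjusted p = 0.9998), and −0.089 without fatigued PBMT replicate 5 (edgeR adjusted p = 0.99992).

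By role, the targeting subunits ran from −0.22 for Ppp1r3b to 0.24 for Ppp1r3c and the hexokinases from 0.018 for Hk1 to 0.34 for Hk2 in log2. All 4 genes of glycogen synthesis had lower fitted values with PBMT, from −0.14 for Gys1 to −0.052 for Gbe1 in log2, and of 6 genes of glycogen breakdown 5 were lower, by at most 0.053 in size. Upper glycolysis ran from −0.075 to 0.15 and lower glycolysis from −0.11 to 0.11 on the log2 scale. Among the 3 lists of neighbouring pathways, with 28, 15 and 23 genes tested, edgeR called 0, and at an unadjusted p under 0.05 Pfkfb4 alone passed (log2 fold change 0.28, edgeR unadjusted p = 0.00318). Of all genes tested 1.58% passed that level in edgeR. In the cell type lists Myl3, a slow-fiber light chain, alone passed that level (log2 fold change 0.58, edgeR unadjusted p = 0.0122). The summed marker levels of the 10 cell type lists gave exact permutation p-values whose adjusted values were all 0.926 in both PBMT comparisons.

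Whether the PBMT effect differed between fatigued and sedentary muscle was tested as the difference of both effects in a fit to all 24 mice, in which a shift between projects cancels. With edgeR 0 of 37 members were called (0.00662% of 15108 genes were), DESeq2 and limma voom called 0 as well, and 3 members (8.11%) passed an unadjusted p under 0.05, against 4.40% of all genes. Ppp1r3c had the smallest p, with a difference of 0.72 in log2 (SE 0.252, 95% interval 0.20 to 1.24, edgeR unadjusted p = 0.00862, adjusted p = 0.946). This set its lower median with PBMT in sedentary muscle beside its higher median with PBMT in fatigued muscle. Gyg had a difference of −0.28 (SE 0.121, 95% interval −0.52 to −0.03, edgeR unadjusted p = 0.0312, adjusted p = 0.946). Slc2a1 had a difference of 0.45 (SE 0.201, 95% interval 0.04 to 0.86, edgeR unadjusted p = 0.0337, adjusted p = 0.946). All 3 fail the adjustment over all genes, and this comparison shares its mice with both PBMT comparisons.

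Neighbouring pathways were read in the same test, in which 4.40% of all genes passed an unadjusted p under 0.05 in edgeR. Of 28 other glycolysis and glycogen genes edgeR called 0, with 2 higher and 1 lower at an unadjusted p under 0.05: Pfkfb4 had a difference of 0.49 in log2 (edgeR unadjusted p = 4.5e-04), Slc2a3 one of −0.73 (edgeR unadjusted p = 0.0320) and Ppp1r3f, a scarce targeting subunit, one of 1.24 (edgeR unadjusted p = 0.0424). Among 15 pentose phosphate and hexosamine genes edgeR called 0, and Pgd (0.37, edgeR unadjusted p = 0.0177) and Pgls (0.42, edgeR unadjusted p = 0.0367), both of the oxidative pentose phosphate branch, passed the unadjusted level. Of 23 regulators edgeR called 0, and Prkaa1, a catalytic subunit of AMP-activated kinase, passed it with −0.30 (edgeR unadjusted p = 0.0223). Among the cell type markers Myl3 passed it with a difference of 0.77 (edgeR unadjusted p = 0.0285).

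Fatigued and sedentary muscle were then compared without PBMT. The groups come from separate sequencing projects, so a difference between them may be read only as a measured difference, and exercise, handling and project cannot be told apart. Without PBMT, 8 of 37 members (21.6%) were higher in fatigued controls and 2 (5.41%) lower at an edgeR adjusted p under 0.05, where 9.10% of the 15108 genes tested were higher and 9.49% lower. The median log2 fold change was 0.10 over the members and −0.012 over all genes tested. Groups of 6 and 6 lay fully apart for 4 members (10.8%), namely Hk1, Pfkp, Pygb and Gbe1, where 7.70% of genes tested did so. With limma voom 19 members were called and with DESeq2 11. Over all genes limma voom called 4945 and DESeq2 3209, where edgeR called 2809. The higher genes were 3 of glucose entry (Hk1, Hk2 and Slc2a1), 3 of glycogen breakdown (Pygm, Pygb and Phka1) and 2 of glycolysis (Pfkp and Eno1), and the lower genes belonged to glycogen synthesis and its control.

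Both hexokinases were higher in fatigued controls. Hk1 (ENSMUSG00000037012, chromosome 10) ran from 7.31 to 10.6 CPM (median 8.46) in sedentary controls and from 12.6 to 14.8 CPM (median 14.4) in fatigued controls. The groups did not overlap, and the edgeR log2 fold change was 0.72 (SE 0.111, 95% interval 0.50 to 0.95, adjusted p = 6.2e-05). Hk2 ran from 363 to 703 CPM (median 428) in sedentary and from 598 to 1095 CPM (median 855) in fatigued controls, the highest sedentary value being that of replicate 4. It rose by 0.90 in log2 (SE 0.199, 95% interval 0.49 to 1.31, edgeR adjusted p = 0.00274), and by 1.06 without that library (edgeR adjusted p = 3.9e-04). Slc2a1, the basal transporter, ran from 3.68 to 5.97 CPM (median 5.30) in sedentary and from 4.97 to 9.12 CPM (median 8.12) in fatigued controls. It rose by 0.54 in log2 (SE 0.142, 95% interval 0.24 to 0.83, edgeR adjusted p = 0.00993), with 4 of 6 fatigued mice above every sedentary mouse. Slc2a4, the dominant transporter, had a log2 fold change of −0.037 (edgeR unadjusted p = 0.595) and was not called.

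Pfkp, the platelet phosphofructokinase and the scarcest of its step, ran from 2.58 to 4.31 CPM (median 3.33) in sedentary and from 4.90 to 7.80 CPM (median 6.09) in fatigued controls. The groups lay apart, with a log2 rise of 0.89 (SE 0.172, 95% interval 0.54 to 1.247, edgeR adjusted p = 6.8e-04). The Pfkp gene lies under an opposite-strand gene, Pitrm1, with 55293 counts over the 24 libraries against 6781 for Pfkp, and the strand setting of the counting is not stated, so part of its counts may come from that gene and was not tested. Pygb, the brain phosphorylase, ran from 4.19 to 5.76 CPM (median 5.29) in sedentary and from 7.18 to 9.82 CPM (median 8.13) in fatigued controls, without overlap. It rose by 0.66 in log2 (SE 0.144, 95% interval 0.36 to 0.95, edgeR adjusted p = 0.00239). Eno1, the widespread enolase, ran from 35.7 to 55.03 CPM (median 43.1) in sedentary and from 48.9 to 73.1 CPM (median 58.2) in fatigued controls. It rose by 0.45 in log2 (SE 0.105, 95% interval 0.24 to 0.67, edgeR adjusted p = 0.00356), and 3 of 6 fatigued mice exceeded all sedentary mice.

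Smaller rises completed this side. Pygm, the muscle phosphorylase, rose by 0.39 in log2 (SE 0.108, edgeR adjusted p = 0.0142), and by 0.51 without sedentary control replicate 4 (edgeR adjusted p = 1.8e-04), where that library held the highest sedentary value. Phka1, its upstream kinase subunit, rose by 0.29 (SE 0.0917, edgeR adjusted p = 0.0277), a call that was lost when any of 5 single mice was left out, with edgeR adjusted p up to 0.0702.

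Both genes that fell act on glycogen building, and their share of the members (5.41%) was below the share of all genes tested that fell (9.49%). Their roles did not fall as a whole. In fatigued controls 2 of 4 genes of glycogen synthesis and 3 of 4 targeting subunits had higher fitted values. Ppp1r3a (ENSMUSG00000042717, chromosome 6), the muscle targeting subunit, ran from 287 to 588 CPM (median 481) in sedentary and from 256 to 349 CPM (median 318) in fatigued controls. It fell by 0.55 in log2 (SE 0.145, 95% interval −0.85 to −0.25, edgeR adjusted p = 0.00938), with 2 of 6 fatigued mice below every sedentary mouse. Its lowest sedentary value was that of replicate 4. Gbe1 (ENSMUSG00000022707, chromosome 16), which adds branches to glycogen, ran from 121 to 178 CPM (median 144) in sedentary and from 90.8 to 119 CPM (median 103) in fatigued controls, without overlap. It fell by 0.52 in log2 (SE 0.139, 95% interval −0.81 to −0.24, edgeR adjusted p = 0.0101). Without sedentary control replicate 4 edgeR called 14 members in all in place of 10, and 3770 of all genes in place of 2809.

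Around the set, called genes lay on both sides in this comparison, where 9.10% of all genes tested were higher and 9.49% lower in edgeR. Of 28 other glycolysis and glycogen genes 4 were higher and 5 lower in edgeR. Pfkfb3 fell by 1.86 in log2 (edgeR adjusted p = 7.4e-06), Gpd1l by 0.32 (3.97e-04) and Pfkfb1 by 0.40 (0.00691), while Adpgk, a kinase that uses ADP, rose by 0.66 (1.1e-04) and Gaa, the lysosomal glycogen hydrolase, by 0.44 (0.00809), with edgeR adjusted p in parentheses. Of 23 regulators 3 were higher and 3 lower in edgeR: Irs2 rose by 1.62 (adjusted p = 3.7e-04), Irs1 by 0.63 (5.0e-04) and Rrad, a Ras-like GTPase, by 3.20 (0.00261), while the phosphatase catalytic subunits Ppp1cb and Ppp1cc fell by 0.44 (6.6e-04) and 0.30 (6.8e-04) and Prkag1, a subunit of AMP-activated kinase, by 0.20 (0.0307). Of 15 pentose phosphate and hexosamine genes 1 was higher and 3 lower in edgeR. Gfpt2, at the entry to the hexosamine pathway, rose by 0.97 (edgeR adjusted p = 0.0148), while Rpe fell by 0.30 (0.0173), Gnpnat1 by 0.37 (0.0425) and Pgls by 0.39 (0.0447).

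Cell type markers also moved with this comparison. Of 9 skeletal muscle fiber markers 4 were called higher in edgeR and 0 lower. The higher were Myh4 by 0.86 in log2 (adjusted p = 0.00101), Tnnt3 by 0.37 (adjusted p = 9.7e-04), Acta1 by 0.36 (adjusted p = 0.00514) and Ckm by 0.29 (adjusted p = 0.0363). Another marker of this list had a log2 fold change of −0.42, with an edgeR unadjusted p under 0.05, and was not called. Of 8 slow-fiber markers Atp2a2 rose by 0.53 (adjusted p = 0.00177) and Myl3 fell by 0.75 (adjusted p = 0.0283), while the list's mean sum was 909.98 CPM in sedentary and 701 CPM in fatigued controls. Of 7 adipocyte markers Car3, also a muscle gene, fell by 0.63 (edgeR adjusted p = 0.00101), and of 6 endothelial markers Cldn5 rose by 0.57 (edgeR adjusted p = 0.0458). The myeloid genes S100a8 and S100a9, of 8 tested, fell from means of 11.4 and 17.6 CPM to 0.258 and 0.348 CPM (edgeR adjusted p = 4.2e-05 and 6.0e-05), and the list's sum went from 83.6 to 60.5 CPM. The liver gene Alb rose (edgeR adjusted p = 0.0144) from a mean of 0.0570 to 2.87 CPM, of which fatigued control replicate 5 held 13.8 CPM. In edgeR 0 of 6 erythrocyte, 0 of 7 nerve, 0 of 1 keratinocyte and 0 of 6 tendon and fibroblast markers tested were called, with 2, 0, 0 and 3 at an unadjusted p under 0.05. The sum of the tendon and fibroblast list had a median of 557.6 CPM in sedentary and 923 CPM in fatigued controls. The part of these cell types in the member values was not tested.

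After PBMT, fatigued and sedentary mice were compared in the other 12 animals, again across projects. In edgeR 9 of 37 members (24.3%) were higher and 4 (10.8%) lower in fatigued PBMT mice, where 14.1% of the 15108 genes tested were higher and 12.7% lower. The median log2 fold change was 0.055 over the members and 0.0021 over all genes tested. Groups lay fully apart for 5 members (13.5%), namely Slc2a1, Hk1, Hk2, Eno1 and Ppp1r3a, where 11.2% of genes tested did so. Shares of members called were thus near those of all genes on the lower side, and 24.3% against 14.1% on the higher side, a description without a test. Of the genes called, 6 were higher in both comparisons of fatigued with sedentary mice (Eno1, Hk1, Hk2, Pfkp, Pygb and Slc2a1) and 2 lower in both (Gbe1 and Ppp1r3a), in mice that the comparisons do not share but projects that they do.

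Genes of glucose entry were again among those called, and Hk2 had the largest rise. Hk2 ran from 293 to 579 CPM (median 455) in sedentary PBMT and from 724 to 1445 CPM (median 1069) in fatigued PBMT mice, without overlap. It rose by 1.26 in log2 (SE 0.200, 95% interval 0.85 to 1.67, edgeR adjusted p = 6.8e-05). Hk1 ran from 6.54 to 10.6 CPM (median 7.49) and from 12.3 to 17.98 CPM (median 13.8), also without overlap, and rose by 0.85 in log2 (SE 0.111, 95% interval 0.62 to 1.07, edgeR adjusted p = 4.3e-06). Slc2a1 ran from 3.68 to 5.16 CPM (median 4.57) in sedentary PBMT and from 6.69 to 10.5 CPM (median 9.41) in fatigued PBMT mice. Its groups lay apart as well, with a log2 rise of 0.99 (SE 0.143, 95% interval 0.69 to 1.28, edgeR adjusted p = 1.5e-05). The transporter and both hexokinases therefore rose together, while Slc2a4 was not called (log2 fold change −0.068, edgeR unadjusted p = 0.335).

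Ppp1r3c and Ppp1r3a moved in opposite directions. Ppp1r3c ran from 228 to 456 CPM (median 289) in sedentary PBMT and from 448 to 938 CPM (median 631) in fatigued PBMT mice, with 5 of 6 fatigued mice above every sedentary mouse. It rose by 1.15 in log2 (SE 0.180, 95% interval 0.78 to 1.52, edgeR adjusted p = 5.4e-05). Ppp1r3a ran from 386 to 614 CPM (median 528) and from 193 to 359 CPM (median 273), without overlap, and fell by 0.94 in log2 (SE 0.146, 95% interval −1.24 to −0.64, edgeR adjusted p = 4.3e-05). These are the 2 abundant targeting subunits, and their shares of the step changed accordingly. Without PBMT, Ppp1r3c had a log2 fold change of 0.43 (edgeR unadjusted p = 0.0233) and was not called.

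The minor forms of glycolytic and phosphorylase steps followed. Pfkp ran from 2.60 to 5.84 CPM (median 2.97) in sedentary PBMT and from 5.36 to 9.00 CPM (median 6.77) in fatigued PBMT mice, with sedentary PBMT replicate 2 alone reaching into the fatigued range. It rose by 1.02 in log2 (SE 0.171, 95% interval 0.67 to 1.37, edgeR adjusted p = 9.4e-05). Pygb ran from 3.88 to 6.66 CPM (median 5.25) and from 5.48 to 11.2 CPM (median 7.76), with 4 of 6 fatigued mice above all sedentary mice. It rose by 0.61 in log2 (SE 0.144, 95% interval 0.31 to 0.91, edgeR adjusted p = 0.00268). The smaller rises were those of Eno1 by 0.55 (edgeR adjusted p = 3.9e-04), Pgam1, the mutase form outside muscle, by 0.47 (edgeR adjusted p = 0.0434), and Pfkl, the liver phosphofructokinase, by 0.37 (edgeR adjusted p = 0.0361). Pgam1 lost its call without any of 8 single mice and in 3 of 8 alternative settings, with edgeR adjusted p up to 0.121 without fatigued PBMT replicate 5. Pfkl lost it without any of 6 single mice and in 1 setting, with edgeR adjusted p up to 0.116 without the same library.

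The lower members again belonged to glycogen building and upkeep, at a share of members near that of all genes. All 4 genes of glycogen synthesis had lower fitted values, while 2 of 4 targeting subunits had higher ones, among them Ppp1r3c. Gbe1 ran from 131 to 151 CPM (median 143) in sedentary PBMT and from 61.2 to 145 CPM (median 92.0) in fatigued PBMT mice, of which 5 of 6 lay below every sedentary mouse. It fell by 0.51 in log2 (SE 0.139, 95% interval −0.79 to −0.22, edgeR adjusted p = 0.00827). Epm2a, the phosphatase that keeps glycogen soluble, ran from 109 to 127 CPM (median 125) and from 85.6 to 117 CPM (median 105), and fell by 0.22 in log2 (SE 0.0735, 95% interval −0.37 to −0.07, edgeR adjusted p = 0.0257). Gyg ran from 277 to 347 CPM (median 325) and from 229 to 299 CPM (median 275), and fell by 0.23 in log2 (SE 0.0854, 95% interval −0.41 to −0.06, edgeR adjusted p = 0.0428). In both, 3 of 6 fatigued mice lay below all sedentary mice. Gyg lost its call without any of 12 single mice and in 5 of 8 alternative settings (edgeR adjusted p up to 0.115), and Epm2a without any of 7 mice and in 1 setting (edgeR adjusted p up to 0.0765). Without fatigued PBMT replicate 5 edgeR called 9 members in all in place of 13, and 3319 of all genes in place of 4051.

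**Figure D3:**
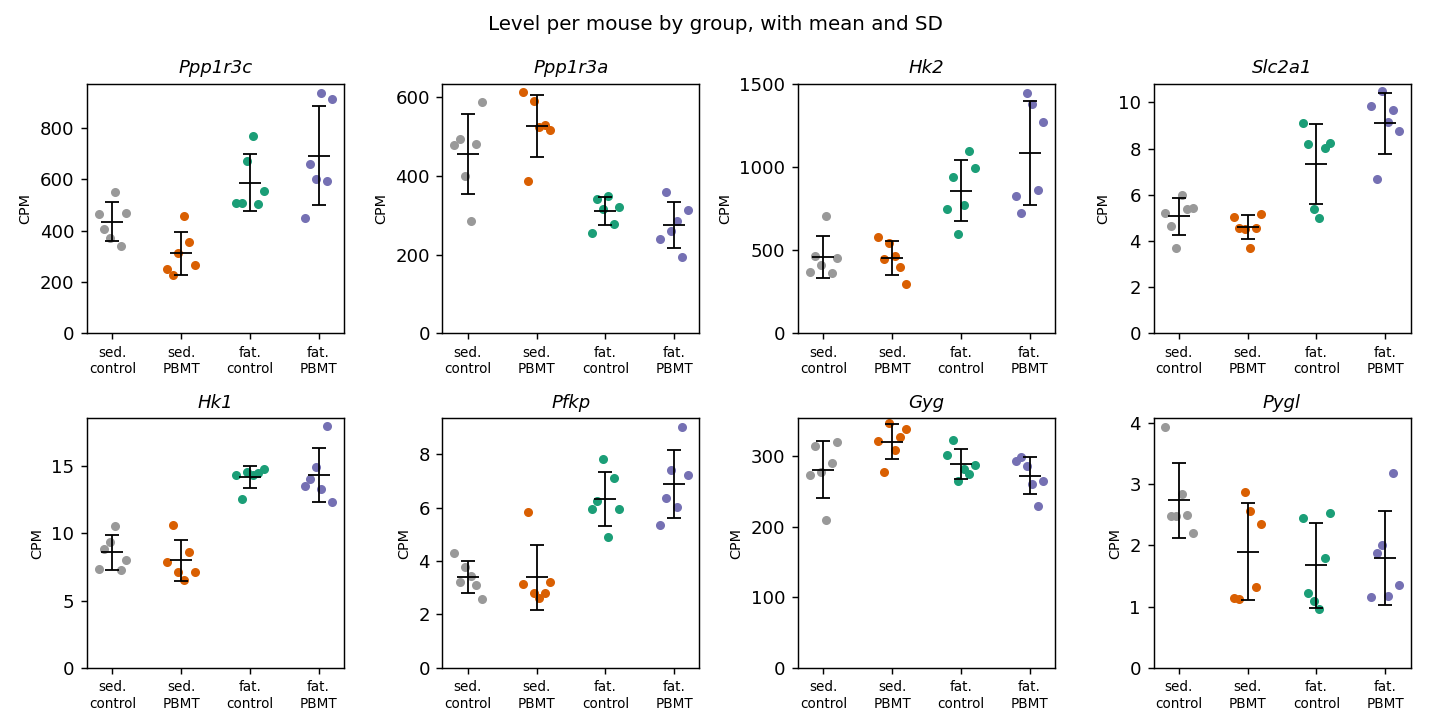
Level in CPM, scaled over all 24 mice, of 8 genes in each of the 4 groups, with 1 point per mouse and bars for the mean and SD of 6. Hk1 lies at 6.54 to 10.6 CPM in the 12 sedentary mice and at 12.3 to 17.98 CPM in the 12 fatigued mice, while Ppp1r3a is lower and Ppp1r3c higher in the fatigued PBMT group than in the sedentary PBMT group.

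Neighbouring pathways held called genes on both sides after PBMT, where 14.1% of all genes tested were higher and 12.7% lower in edgeR. Of 28 other glycolysis and glycogen genes 5 were higher and 5 lower in edgeR. Pfkfb3 fell by 2.04 in log2 (adjusted p = 9.3e-07), Gpd1l by 0.27 (adjusted p = 0.00118), Slc2a12, a further transporter, by 0.61 (adjusted p = 0.00189) and Pfkfb1 by 0.40 (adjusted p = 0.00452), while Pfkfb4 rose by 0.73 (adjusted p = 9.6e-07) and Adpgk by 0.64 (adjusted p = 8.4e-05). Of 23 regulators 3 were higher and 4 lower in edgeR: Irs2 rose by 2.34 (adjusted p = 4.4e-06) and Rrad by 1.96 (adjusted p = 0.0232), while Ppp1cb fell by 0.55 (adjusted p = 3.6e-05), Ppp1cc by 0.28 (adjusted p = 9.2e-04), and the catalytic subunits of AMP-activated kinase Prkaa2 by 0.52 (adjusted p = 0.00258) and Prkaa1 by 0.30 (adjusted p = 0.0105). Of 15 pentose phosphate and hexosamine genes 4 were higher and 2 lower in edgeR: Gfpt2 rose by 1.64 (adjusted p = 1.1e-04), Pgd by 0.44 (adjusted p = 0.00302), Uap1 by 0.22 (adjusted p = 0.0043) and Tkt by 0.39 (adjusted p = 0.0438), while Rpe fell by 0.40 (adjusted p = 0.00136) and Gnpnat1 by 0.54 (adjusted p = 0.00224).

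Markers moved here too. Of 9 skeletal muscle fiber markers 3 rose in edgeR, Myh4 by 0.65 in log2 (adjusted p = 0.00628), Tnnt3 by 0.26 (adjusted p = 0.0121) and Acta1 by 0.30 (adjusted p = 0.0128), and of 8 slow-fiber markers Atp2a2 rose by 0.53 (adjusted p = 0.00103). Fitted values were lower for 2 of the 9 fiber markers, down to −0.22 in log2, and neither was called. Of 6 tendon and fibroblast markers 4 rose in edgeR, Pdgfra by 0.83 (adjusted p = 0.00267), Col1a1 by 1.69 (adjusted p = 0.00511), Dcn by 0.45 (adjusted p = 0.0390) and Fmod by 1.17 (adjusted p = 0.0420), and the list's median per mouse went from 460.2 to 849.6 CPM. Of 8 myeloid markers 4 rose in edgeR, Csf1r by 1.13 (adjusted p = 0.00135), Itgam by 1.85 (adjusted p = 0.0104), Adgre1 by 1.05 (adjusted p = 0.0454) and Cd68 by 0.97 (adjusted p = 0.0471), while S100a8 and S100a9 fell from means of 8.25 and 13.1 CPM to 0.285 and 0.705 CPM (adjusted p = 6.3e-05 and 2.5e-04). The myeloid sum had a median of 55.8 CPM in sedentary PBMT and 51.9 CPM in fatigued PBMT mice, of which replicate 5 held 127 CPM. That library was also highest for each of the 4 myeloid and 4 tendon and fibroblast markers that rose, and their calls without it were not tested. Of 6 endothelial markers Pecam1 rose by 0.40 (edgeR adjusted p = 0.0109) and Emcn fell by 0.54 (edgeR adjusted p = 0.0186), of 7 adipocyte markers Cidec rose by 1.56 (edgeR adjusted p = 0.0326) and Car3 fell by 0.48 (edgeR adjusted p = 0.00614), and the keratinocyte gene Krt10 fell by 1.52 (edgeR adjusted p = 0.00493). The keratinocyte sum, led by Krt10, was 25.5 CPM in sedentary PBMT replicate 4 and 9.15 CPM in replicate 2. Its median was 2.51 CPM in that group and 1.70 CPM in fatigued PBMT mice. In edgeR 0 of 6 erythrocyte, 0 of 7 nerve and 0 of 1 liver markers tested were called, and 0 in each list passed an unadjusted p under 0.05. The part of these cell types in the values of the minor forms was not tested.

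After these values were seen, members were also grouped by their level within a step, which is a description and carries no test. Of the 9 genes that led a step, 2 rose in each comparison of fatigued with sedentary mice, Hk2 and Pygm without PBMT and Hk2 and Ppp1r3c after it. Of the 13 tested other members of those steps, 5 rose and 1 fell without PBMT, and 7 rose and 1 fell after it. The 7 that rose after it, Slc2a1, Hk1, Pfkl, Pfkp, Pgam1, Eno1 and Pygb, had their highest counts of the fatigued PBMT group in replicate 5. That library was also the highest for the fibroblast and myeloid markers that rose. Without it edgeR lost the calls of Pfkl and Pgam1 and kept the others. Of the 15 members that stand alone in a step or serve as subunits, 1 rose and 1 fell without PBMT, and 0 rose and 3 fell after it in edgeR. Over all genes tested 9.10% rose and 9.49% fell without PBMT, and 14.1% rose and 12.7% fell after it. Because the minor forms are scarce, the shares of the muscle forms stayed high: Eno3 held 99.6% and Slc2a4 98.2% of their steps in fatigued PBMT mice.

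Promoters are shown as a description of sequence, and a link between their letters and the higher levels in fatigued mice was not tested. From the RefSeq promoter table (GRCm38.p6; 250 bases before to 50 after a start), 35 of the 38 members matched, with 47 windows. The letters ACGTG, known as the core of the element bound by hypoxia-inducible factors, were searched on both strands and were found in 23 of 47 member windows (48.9%) and in 19.6% of all 32851 windows. Of the 6 genes called higher in both comparisons of fatigued with sedentary mice, 4 held it (Hk1, Hk2, Pygb and Slc2a1), as did 21 of the 35 member genes in the table. The longer palindrome CACGTG, which contains ACGTG and is known as an E-box bound by clock and other factors, was found in 5 of 47 member windows (10.6%), those of Fbp2, Gyg, Pfkm, Ppp1r3c and Ppp1r3d, and in 7.15% of all windows. A match is a description of letters and not of binding.

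The bases before the start are printed for 3 genes whose windows hold ACGTG, namely Hk2, Pygb and Ppp1r3c, the last of which also holds the palindrome, 5′ to 3′ on the strand of the gene. Capitals mark ACGTG or its reverse complement CACGT, with CACGTG where both overlap. The stretches are chr6:82774455-82774704 on the minus strand for Hk2, chr2:150786546-150786734 on the plus strand for Pygb and chr19:36736654-36736854 on the minus strand for Ppp1r3c.
Hk2: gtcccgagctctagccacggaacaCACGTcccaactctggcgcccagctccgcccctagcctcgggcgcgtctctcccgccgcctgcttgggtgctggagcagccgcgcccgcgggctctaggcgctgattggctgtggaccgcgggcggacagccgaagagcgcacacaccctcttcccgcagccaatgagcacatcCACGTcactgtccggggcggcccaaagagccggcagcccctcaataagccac
Pygb: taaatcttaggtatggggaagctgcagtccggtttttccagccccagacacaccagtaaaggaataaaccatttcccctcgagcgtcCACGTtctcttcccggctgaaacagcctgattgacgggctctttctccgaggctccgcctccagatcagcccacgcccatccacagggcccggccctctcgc
Ppp1r3c: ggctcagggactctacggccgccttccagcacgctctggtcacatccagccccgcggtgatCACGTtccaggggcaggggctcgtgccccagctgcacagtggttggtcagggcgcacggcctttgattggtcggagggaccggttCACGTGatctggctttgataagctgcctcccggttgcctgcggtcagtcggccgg

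Some values carry limits of counting. Phkg1 shares same-strand sequence with Chchd2, whose counts were 405874 against 695590 for Phkg1 over 24 libraries, and Gys1 overlaps the opposite-strand gene Ruvbl2 with 25202 counts against 631311. Annotated near-copies of members drew at most 0.552% of the counts of their parent, for a copy of Pgam1. Log2 fold changes of PBMT in sedentary muscle related to gene length across 14170 genes with a Spearman rho of 0.303, and in fatigued muscle across 14565 genes with a rho of −0.0227. The rho was −0.235 for the difference of effects, 0.215 for fatigued against sedentary mice without PBMT and 0.0604 after it, each across 15097 genes, where genes are not independent replicates.

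These data have limits. Groups held 6 mice each, the comparisons of fatigued with sedentary mice run across sequencing projects, and messages say nothing of enzyme activity or glycogen content, which were not measured. Intervals for scarce members such as Ppp1r3b and Aldoc were wide. Sedentary control replicate 4 raised the spread of its group for Hk2, Pygm and other abundant members. Muscle was taken 24 h after light, or directly after the run, so earlier and later changes were not seen. Whole muscle was sequenced, and the cell of origin of the minor forms was not tested.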

How the data were processed

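Counts per gene were deposited by the authors, and no reads were realigned. The labels name Trimmomatic, STAR 2.7.1a, Picard 2.20.4, StringTie 2.0.4, featureCounts 1.6.0 and HTSeq on GRCm38, without saying which counter, strand setting or annotation gave the deposited counts. Of 55487 gene identifiers 55227 matched GENCODE M21 and 260 did not. Aldoa has 2 identifiers, of which ENSMUSG00000030695 was used.

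The members and the lists of neighbouring genes and cell type markers were chosen with earlier results of these data known. Genes were kept by filterByExpr at a minimum count of 10, scaled by TMM and tested with the robust quasi-likelihood F test of edgeR 4.0.16 in R 4.3.3, and p was adjusted by the Benjamini-Hochberg method across every gene in the test. PBMT was tested within a project (12 mice), and the difference of effects and fatigued against sedentary in a 4-group fit to 24 mice. Standard errors are the log2 fold change over the square root of F. Sums of markers were compared by exact permutation over 924 arrangements. The code was tested on simulated data.

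Every member was tested and counted. Full values are given in the PBMT comparisons for the 5 members with the smallest p, and for any called or non-overlapping member. In fatigued against sedentary mice they are given for the called members, at most 6 rising and 6 falling, in order of size, and in the difference of effects for the 3 with the smallest p. Other lists give counts and up to 6 called genes, or up to 3 at an unadjusted p under 0.05.

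Alternatives were DESeq2 1.42.0, limma voom 3.58.1 with sample weights, DESeq2 size factors in edgeR, no filter, a stricter filter with 10 counts in each sample, replicate number as a block, removal of the trend with gene length, both together, the 24-mouse fit for PBMT, and each mouse left out in turn. Levels by longest transcript gave the same order of members in 9 of 9 steps but moved levels between genes, such as Phkg1 from 81.9 to 224.6, Gpi1 from 142 to 286 and Eno1 from 9.73 to 25.8 CPM per kilobase, and 0 of 152 means moved by over 1 SD on unscaled totals.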

Additional observations from a re-analysis of the deposited data

Results flagged for a closer look

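Single mice that stood apart for single members were sought with the Dixon ratio at its tabled critical value for 6 mice on CPM within a project. Of 152 sets of 6 mice 20 passed, where about 1 in 20 is known to pass by chance.

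Sedentary control replicate 4 passed for 7 members, in each as the highest mouse: Hk2 at 697 CPM (next 470.3), Pfkm at 6307 (4476), Pgam2 at 2142 (1634), Eno3 at 6847 (5857), Pkm at 5254 (3337), Pygm at 7361.5 (5361) and Nhlrc1 at 7.92 (5.17). The same library had a low mitochondrial share of 3.24%.

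Sedentary PBMT replicate 2 stood apart for 5 members: Pfkp at 5.91 CPM (next 3.25) and Eno1 at 50.1 (44.3) were high, and Aldoa at 15180 (17859), Epm2a at 109.9 (122) and Gpd2 at 247 (296) were low.

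Fatigued control replicate 5 was low for Aldoa at 16683 CPM (next 18647) and Pygm at 5443 (6831), and high for Pgam1 at 9.92 (5.40). Fatigued control replicate 3 was high for Aldoc at 0.391 CPM (0.173) and Pgam2 at 1791 (1500.3).

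Fatigued control replicate 2 was low for Hk1 at 12.4 CPM (next 14.1), sedentary control replicate 1 was high for Pygl at 4.02 (2.81), and sedentary control replicate 3 was low for Phka1 at 739.8 (856). Fatigued PBMT replicate 5 passed for no member. No mouse was removed from the results in the report.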

How the results depend on the processing

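In the PBMT comparisons and in the difference of effects, 0 members were called under every alternative and with any mouse left out. In sedentary muscle edgeR called 4 genes of all, against 16 without a filter, 60 with DESeq2, 50 with voom, 11 with replicate block, 12 with the length trend removed, 14 with both and 1 in the 24-mouse fit. With a mouse left out the count ran from 2 to 20: it was 2 without sedentary control 1, 2 or 6, 18 without control 4, and 10, 7 and 20 without sedentary PBMT 2, 4 and 5. In fatigued muscle 0 genes were called, against 2 with DESeq2, 1 with replicate block and 1 with block and length. For the difference 1 gene was called, against 0 with block and length and 3 without sedentary PBMT 2. Correlations of same-numbered mice ran from −0.111 to 0.104 in sedentary mice, with own number the best match for 1 of 6 and 1 correlation over 0.1. In fatigued mice they ran from −0.0888 to 0.371, with own number the best match for 3 of 6 and 4 correlations over 0.1. Pairing was kept as an alternative, with which 0 members were called in either PBMT comparison.

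Fatigued against sedentary without PBMT, members called were 10 (voom 19, 9 to 14 with a mouse left out) and all genes 2809 (voom 4945, 2078 to 3770 with a mouse left out). After PBMT members called were 13 (9 to 15 with a mouse left out) and all genes 4051 (voom 4937, 3245 to 4768 with a mouse left out).

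For 36 single-gene results 1042 alternatives were run, and all 1042 kept direction. For the 23 called results 687 of 736 alternatives kept the call and 49 lost it, and for the 13 results not called 0 of 306 gained one. All losses were in 5 genes. In the ranges of adjusted p that follow, settings span edgeR, DESeq2 and limma voom, and left-out mice are from edgeR. Gyg after PBMT lost it in 5 of 8 settings (0.00498 to 0.0815) and without 12 mice (0.0103 to 0.115). Pgam1 after PBMT lost it in 3 settings (0.0153 to 0.0637) and without 8 mice (0.0130 to 0.121). Epm2a after PBMT lost it in 1 setting (0.0129 to 0.0634) and without 7 mice (0.0128 to 0.0765). Pfkl after PBMT lost it in 1 setting (0.0151 to 0.0513) and without 6 mice (0.00651 to 0.116). Phka1 without PBMT lost it in 1 setting (0.00488 to 0.0532) and without 5 mice (0.0141 to 0.0702).

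Calls were lost with these mice left out (adjusted p in edgeR). Phka1: fatigued control 3 (0.0702), 4 (0.0613), 6 (0.0516), sedentary control 3 (0.0632), 5 (0.0557). Gyg: fatigued control 3 (0.0566), 6 (0.0622), fatigued PBMT 3 (0.0585), 4 (0.0999), 5 (0.115), 6 (0.0970), sedentary control 3 (0.0633), sedentary PBMT 1 (0.0900), 3 (0.115), 4 (0.0675), 5 (0.0900), 6 (0.1001). Pfkl: fatigued PBMT 1 (0.0562), 5 (0.116), sedentary PBMT 1 (0.0596), 2 (0.0556), 3 (0.0670), 4 (0.0623). Epm2a: fatigued PBMT 2 (0.0581), 3 (0.0631), 5 (0.0765), sedentary PBMT 1 (0.0700), 3 (0.0599), 5 (0.0605), 6 (0.0611). Pgam1: fatigued PBMT 4 (0.0763), 5 (0.121), 6 (0.0910), sedentary control 1 (0.0511), sedentary PBMT 1 (0.0550), 3 (0.0865), 5 (0.0833), 6 (0.0862).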
